A study of Mus musculus with 12 samples.

Results

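The rows described here are the small RNA genes and their noncoding host genes in a liver RNA-seq table. They were taken by symbol as microRNA genes and microRNA host transcripts (Mir followed by a digit, or Mirlet), box C/D snoRNAs (Snord), box H/ACA snoRNAs (Snora), Cajal body RNAs (Scarna) and snoRNA host genes (Snhg), with Mir675 left out. By this rule 481 of 17714 rows were members: 367 microRNA rows, 4 microRNA host transcripts, 58 Snord, 33 Snora, 7 Scarna and 12 Snhg rows. The 116 rows with a mean normalized count of at least 10 over all libraries were tested, and 365 were not. Livers came from female mice aged 3 weeks at weaning, 6 of genotype Lcorl KO and 6 WT, and were collected in the morning and frozen. Lcorl is the gene of a transcriptional corepressor. The labels give neither the construct behind the KO allele nor the strain, and nothing in them says more about how the animals were related.

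MicroRNAs are cut from hairpins in longer primary transcripts, first in the nucleus by Drosha and Dgcr8 and then in the cytoplasm by Dicer. Some hairpins, called mirtrons, are whole short introns released by splicing instead. Most mammalian snoRNAs are trimmed from introns of host genes, many of which encode ribosomal proteins or, like the Snhg genes, have no known protein product. Box C/D snoRNAs guide methylation and box H/ACA snoRNAs guide pseudouridylation of ribosomal RNA, and Cajal body RNAs do this for spliceosomal RNAs. A total RNA library of fragmented RNA reads mainly primary transcripts, introns and host exons at such loci. A row therefore does not measure the mature microRNA.

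The rows the results turn on are shown by sequence. Mature microRNAs and hairpins are from RefSeq on GRCm38.p6, where 62 of the 69 tested microRNA rows had a mature sequence, and snoRNAs are from GENCODE M21 on GRCm38. In mature microRNAs the seed, bases 2 to 8, is in capitals. miR-3076-3p comes from the microRNA row that fell, and miR-22-3p from Mir22hg, the first of the microRNA host transcripts described. The miR-29 pair held the only seed shared by tested rows.
mmu-miR-3076-3p: cGCACUCUggucuucccuugcag
mmu-miR-22-3p: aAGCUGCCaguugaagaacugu
mmu-miR-29c-3p: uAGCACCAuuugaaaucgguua
mmu-miR-29b-3p: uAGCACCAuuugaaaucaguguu

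The next 4 hairpins each share exactly 1 base with an exon of the gene they lie in, and that base is in capitals. They are shown because rows of this kind had the 2 highest densities among microRNA rows inside host genes.
Mir3076 hairpin: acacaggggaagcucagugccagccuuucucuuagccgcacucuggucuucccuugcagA
Mir3064 hairpin: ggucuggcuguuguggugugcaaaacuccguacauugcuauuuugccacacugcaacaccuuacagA
Mir3082 hairpin: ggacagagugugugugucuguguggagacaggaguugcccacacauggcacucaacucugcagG
Mir5121 hairpin: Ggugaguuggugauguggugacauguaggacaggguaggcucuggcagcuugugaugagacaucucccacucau

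In the snoRNAs the capitals mark the box motifs, TGATGA and CTGA of a box C/D RNA and ACA of a box H/ACA RNA. Snord104 is the snoRNA row with the smallest p and Snora41 the Snora row with the smallest p.
Snord104: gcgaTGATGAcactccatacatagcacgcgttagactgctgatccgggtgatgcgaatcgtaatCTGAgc
Snora41: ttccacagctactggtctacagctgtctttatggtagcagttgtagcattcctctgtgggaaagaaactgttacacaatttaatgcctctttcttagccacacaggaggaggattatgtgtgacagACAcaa

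The symbols and the box letters went together. TGATGA on the given strand was in 36 of 58 Snord sequences (62.1%) and in 0 of 31 Snora sequences. CTGA in the last 12 bases, searched apart from TGATGA with overlap allowed, was in 46 Snord sequences (79.3%) and in 1 Snora sequence (3.23%). The letters ACA, 3 bases before the end, were in 26 of 31 Snora sequences (83.9%) and in 0 Snord sequences. Snord sequences were 64 to 238 bases long, with a median of 79, and Snora sequences 121 to 196, with a median of 132.

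Libraries held between 27692285 and 31296485 reads in KO and between 21769795 and 28655120 in WT. Lcorl had 3 reads in 1 KO library, KO 5, at a normalized count of 2.83, and 0 in the other 5, against 234 to 308 in WT livers. All 5 hepatocyte markers were present, with a summed normalized count of 2885956 to 3726845 in KO and 3301067 to 3686375 in WT. The 4 fat markers summed to 0 to 3.11 in KO libraries, against 194 in WT 6 and at most 0.98 in the other WT libraries. The 2 pancreas markers in the table summed to 152 in KO 2, to at most 0.96 in the other KO libraries and to 0 in all WT libraries. The 4 muscle markers summed to at most 3.85 in KO and 7.63 in WT. Macrophage marker sums were 19732 to 27370 in KO and 15134 to 26945 in WT, and erythroid sums 6567 to 22615 in KO and 7562 to 39757 in WT. In bulk liver, fewer cells of a type and less RNA per cell cannot be told apart.

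All member rows together took between 0.0559% and 0.0617% of reads in KO and between 0.0498% and 0.0581% in WT. A read was found in 333 to 359 of the 481 rows in KO libraries and in 295 to 352 in WT libraries. Rows with a mean under 1 numbered 182, and 202 rows had a read in all 12 libraries. No read was found for 18 rows in any KO library and for 26 in any WT library, and none of these rows had more than 8 reads in the other genotype. The limit that a count of 0 allows, 3 reads, was worth 2.55 to 3.11 normalized counts in KO libraries and 2.86 to 3.82 in WT libraries.

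The genotype comparison called 2 of the 116 tested rows, a share of 1.72%, where 4.43% of all 13569 tested genes were called. Of these, 1 row rose and 1 fell, against 1.75% of all tested genes that rose and 2.68% that fell. The test was limma's moderated test on log2(normalized count + 1) with an adjusted p under 0.05 over all tested genes. The 6 KO values lay wholly outside the range of the 6 WT values for 2 rows (1.72%), against 2.96% of all tested genes. An unadjusted p under 0.05 was found for 17 rows (14.7%), against 23.4% of all tested genes. Of the 116 rows, 69 had a log2 fold change above 0 and 47 one below 0, with a median of 0.07. Over all tested genes 7029 were above 0 and 6540 below, with a median of 0.01. Counts of rows or genes as higher or lower go by this sign.

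**Figure D1:**
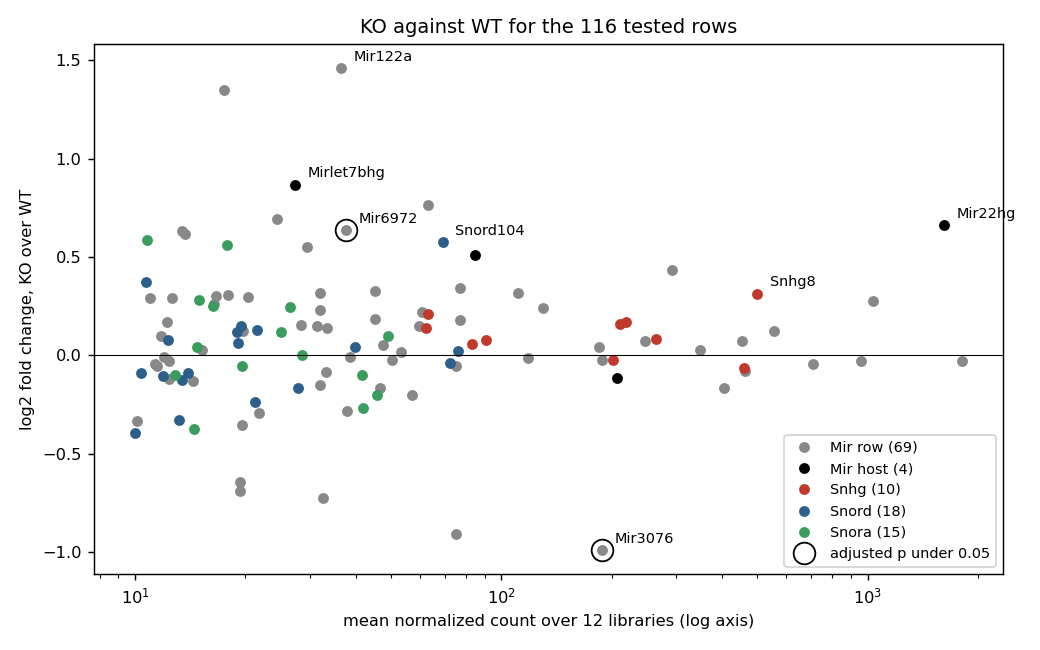
Log2 fold change, KO over WT, of each of the 116 tested rows against its mean normalized count over the 12 libraries (log axis), coloured by class. The 2 rows called at an adjusted p under 0.05, Mir3076 at -0.99 and Mir6972 at 0.64, are ringed.

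Mir3076 fell in KO livers. Its normalized counts were 105, 99.0, 132, 88.6, 166 and 176 in the 6 KO livers, against 209, 257, 235, 257, 300 and 227 in the 6 WT livers. Every KO library lay below every WT library, with KO 6 and WT 1 nearest to each other. The log2 fold change was -0.99 with an SE of 0.17 (limma, adjusted p = 0.0070).

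The row is 60 bases long, at chr14:30572149-30572208 on the plus strand, and lies in an intron of Tkt apart from its last base. Tkt encodes transketolase, an enzyme of the pentose phosphate pathway. Tkt averaged 2526 ± 831 normalized counts in KO livers and 4637 ± 546 in WT livers (SD, n = 6 each). Its log2 fold change was -0.93 with an SE of 0.18 (limma, adjusted p = 0.0139). Tkt was the only one of the 80 host genes of tested rows to be called, beside 4.43% of all tested genes. With runs of animal numbers as a block the Tkt call was lost (limma, adjusted p = 0.0848). A run is a group of neighbouring animal numbers, and genotypes were uneven across runs. The run of WT 2 and WT 3 held no KO liver and so gave no genotype contrast. Another run held KO 2, KO 3, KO 4 and WT 4. Mir3076 held 5.11% ± 0.32 of the Tkt count in KO livers and 5.36% ± 0.59 in WT livers (SD, n = 6 each). The difference in the row to host ratio was -0.06 on the log2 scale with an SE of 0.07, and it was not called (limma, adjusted p = 0.889).

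Mir6972 rose in KO livers. Its normalized counts were 63.2, 44.5, 37.4, 47.2, 40.5 and 42.9 in the KO livers, against 22.3, 27.2, 37.1, 25.5, 30.2 and 32.4 in the WT livers. The groups did not overlap, but KO 3 and WT 3 differed by less than 1 read's worth. The log2 fold change was 0.64 with an SE of 0.16 (limma, adjusted p = 0.0457). The call was kept in 9 of 23 alternative settings, and the adjusted p over these settings lay between 0.0211 and 0.112. Leaving out any 1 of 9 libraries ended it, with adjusted p values between 0.0545 and 0.0977.

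Mir6972 is at chr17:34857569-34857632 on the minus strand, within an intron of Cfb, the gene of complement factor B. Cfb averaged 54286 ± 3891 normalized counts in KO livers and 52989 ± 3145 in WT livers (SD, n = 6 each), with a log2 fold change of 0.03 (limma, adjusted p = 0.848). Mir6972 held 0.0849% ± 0.0175 of the Cfb count in KO livers and 0.0548% ± 0.00786 in WT livers (SD, n = 6 each). The log2 difference in the row to host ratio was 0.60 with an SE of 0.13 (limma, adjusted p = 0.0438). This was the only one of 91 member pairs to be called, a share of 1.10%, beside 1.93% of all 207 nested pairs in the table. That call was kept in 9 of 21 alternative settings.

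**Figure D2:**
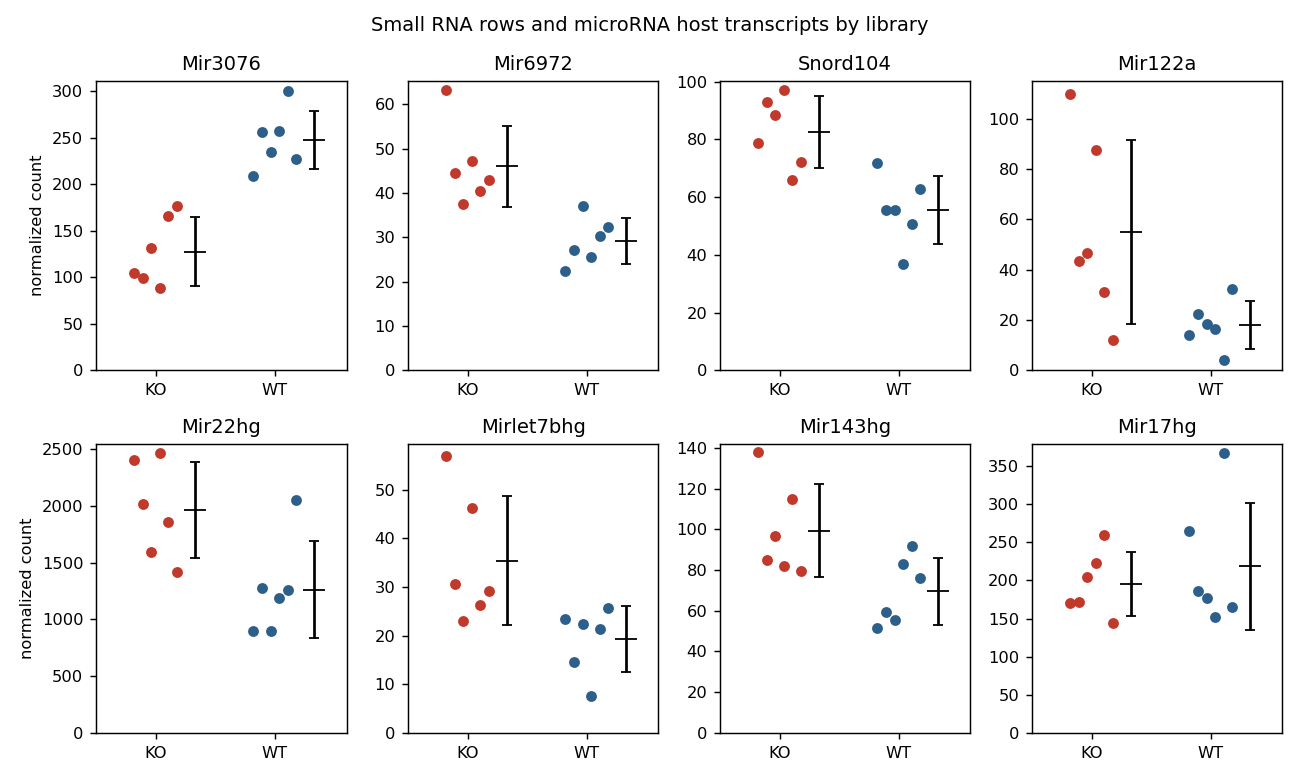
Normalized count of 8 rows in each library (points), KO left of WT, with the mean and SD of 6 libraries beside them. Mir3076 and Mir6972 do not overlap between genotypes, and in Mir22hg the library WT 6, at 2052, lies among the KO libraries.

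The 4 microRNA host transcripts had a median log2 fold change of 0.59, and none was called, beside 4.43% of all tested genes. Mir22hg carries miR-22, an abundant liver microRNA, in an exon, at chr11:75461539-75466676 on the plus strand. Its normalized counts were 2405, 2013, 1591, 2465, 1861 and 1418 in KO livers, against 896, 1276, 900, 1192, 1257 and 2052 in WT livers. All 6 KO libraries were above the other 5 WT libraries, and WT 6 was above 4 of the KO libraries. The log2 fold change was 0.66 with an SE of 0.20 (limma, adjusted p = 0.0710), and without WT 6 it was 0.82 (adjusted p = 0.0115). Over 24 alternative settings it lay between 0.57 and 0.82, with adjusted p values between 0.0115 and 0.258, and was called in 5. WT 6 held the highest WT value, so leaving it out had to enlarge the difference. It was also the library with the highest fat marker sum, and the part of this in the result was not tested. The Mir22 row inside it had a median of 76.9 in KO livers (42.0 to 118) and 41.8 in WT livers (25.4 to 86.7). Its log2 fold change was 0.77, and it held 3.91% ± 0.81 of the host count in KO livers and 3.59% ± 0.66 in WT livers (SD, n = 6 each).

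Mirlet7bhg, the host of let-7b, had 57.0, 30.7, 23.0, 46.2, 26.4 and 29.2 normalized counts in KO livers, against 23.5, 14.6, 22.4, 7.65, 21.5 and 25.7 in WT livers. KO 1 and KO 4 were the highest libraries, and the ranges overlapped. KO 1 also had the highest value of all 12 libraries in 26 of the 116 tested rows, and WT 4, the library with the fewest reads, had the lowest in 18. KO 1 had the lowest sum of sinusoidal endothelial markers, 3548, with 6840 to 7261 in the other KO libraries and 5233 to 8460 in WT, and KO 4 the highest sum of lymphocyte and neutrophil markers, 4574. The part of these in the result was not tested. The log2 fold change was 0.87 with an SE of 0.30 (limma, adjusted p = 0.111).

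Mir143hg, the host of the smooth muscle microRNAs miR-143 and miR-145, had a median of 91.0 in KO livers (79.5 to 138) and 67.8 in WT livers (51.7 to 91.7). Its log2 fold change was 0.51 with an SE of 0.18 (limma, adjusted p = 0.112). The summed stellate and fibroblast markers were 8193 to 12522 in KO and 11004 to 14272 in WT, and their part in the result was not tested. Mir17hg, the host of the miR-17 to miR-92 cluster, had a log2 fold change of -0.11 (limma, adjusted p = 0.801). The 6 microRNA rows inside Mir17hg were all below the mean of 10.

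Mir122a, the row of the main hepatocyte microRNA miR-122, had 110, 43.6, 46.8, 87.6, 31.1 and 11.9 normalized counts in KO livers, against 14.1, 22.3, 18.5, 16.6, 3.90 and 32.4 in WT livers. KO 1 and KO 4 were again the highest, while KO 6 was below 5 of the WT libraries. The log2 fold change was 1.46 with an SE of 0.53 (limma, adjusted p = 0.122). KO 6 was the lowest KO library, so leaving it out had to enlarge the change, to 1.82 (limma, adjusted p = 0.0374). Over 23 alternative settings it lay between 1.09 and 1.82, with adjusted p values between 0.0196 and 0.231, and was called in 2. The span lies in a GENCODE noncoding RNA that has no row in the table, so no ratio to a host could be formed.

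The 69 tested microRNA rows had log2 fold changes between -0.99 and 1.46, with a median of 0.07. An unadjusted p under 0.05 was found for 12 of them, beside 23.4% of all tested genes. Mir568, inside an exon of the transcription factor gene Zbtb20, had a median of 14.2 in KO livers (11.3 to 18.3) and 26.1 in WT livers (15.5 to 30.2). Its log2 fold change was -0.64 (limma, adjusted p = 0.0982), and that of the Zbtb20 row was -0.40 (adjusted p = 0.135). The Zbtb20 row had a mean of 34.8, or 0.128 per 100 exonic bases by GENCODE, beside 23.3 for Mir568. How much of the gene that row counted is therefore not known. Mir29c and Mir29b-2, which share the seed shown above and the host A330023F24Rik, had log2 fold changes of 0.55 and -0.13, neither called. Both lie wholly opposite exonic bases of Cd46, a complement regulator, and without a stated strand setting their reads cannot be told apart from those of Cd46.

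Host genes framed most of the rows. A same-strand host row contained 393 of the 481 members and 91 of the 116 tested ones, 47 wholly in introns, 25 across an exon edge and 19 wholly in exons. The 91 rows had 80 distinct hosts, with 5 tested rows in the ribosomal protein gene Rpl13a and 3 in Snhg12. Of the tested rows, 9 had a host row on the opposite strand. Across the 91 pairs the log2 fold changes of row and host had a Pearson r of 0.74 and a Spearman rho of 0.58, and 68 pairs had the same sign. These are descriptions: the 2 values of a pair share libraries, and a read may count for both, as the overlap rule is not known. Positions are those of GENCODE M21, and the annotation used for counting is not known. By the ratio test 5 of the 91 pairs had an unadjusted p under 0.05, beside 27 of all 207 nested pairs.

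**Figure D3:**
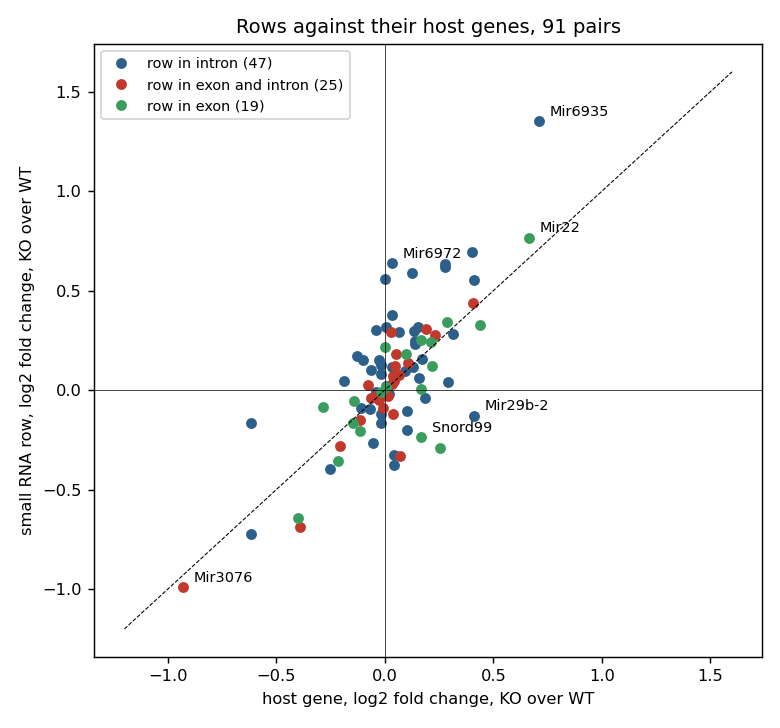
Log2 fold change, KO over WT, of each small RNA row against that of its host gene for 91 pairs, coloured by where the row lies. The dashed line marks equal changes: Mir3076 lies close to it at -0.99 with Tkt at -0.93, and Mir6972 lies above it at 0.64 with Cfb at 0.03.

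Besides Mir6972, 4 rows differed from their host at an unadjusted p under 0.05, and none passed adjustment over all 207 pairs. Mir7052 held 9.73% ± 1.02 of the count of Josd2, a deubiquitinase gene, in KO livers and 7.93% ± 1.83 in WT livers. Snord99 held 8.44% ± 2.32 of the Snhg12 count in KO livers and 11.1% ± 2.09 in WT livers. Mir29b-2 held 5.30% ± 1.77 of the A330023F24Rik count in KO livers and 7.52% ± 1.55 in WT livers. Mir1892 held 20.1% ± 1.29 of the count of Sptssa, a subunit of serine palmitoyltransferase, in KO livers and 21.4% ± 0.75 in WT livers (SD, n = 6 each for these 4 rows; limma, adjusted p = 0.326 or 0.363).

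Level per length, not divided by the level of the host, differed with the position of a row. Wholly intronic microRNA rows, 185 of the 303 inside a host, had a median of 1.31 normalized counts per 100 bases and a maximum of 171. The 10 rows that share exactly 1 base with a host exon had a median of 22.3 per 100 bases, and 7 of them passed the mean of 10. Mir5121 in Rpl13a had 2447 per 100 bases and Mir3064 in Ddx5, the gene of a helicase of the Drosha complex, had 1543, the highest and next highest of the 303. Mir3076 had 313 and Mir3082, in the ubiquitin ligase gene Stub1, had 293. Rows with 2 to 20 exonic bases had a median of 4.39 and rows with more had a median of 4.66. Host levels differed too, with 927 per 100 exonic bases in Rpl13a and 442 in Ddx5. Relative to host exons, the 7 tested rows sharing 1 base lay between 89.3% (Mir7578) and 480% (Mir3082). Mir5121 stood at 264% and Mir3064 at 349%. Tested microRNA rows wholly in exons had a median of 335% over 16 pairs, with a range of 9.90% to 18209%. Such rows are part of their host's exons, so these percentages are not levels apart from the host. Counts were divided by row length, with no allowance for reads that reach past a short row. Tested rows also had to pass the mean of 10.

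In 7 of these 10 hairpins the letters AG come directly before the exonic base at the 3′ end, as in Mir3076, Mir3064 and Mir3082 above. In 2, Mir5121 among them, the exonic base is the first one and GU follows it. AG and GU are the letters at the ends of most introns. Mir5121 also overlaps the span of Snord33.

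**Figure D4:**
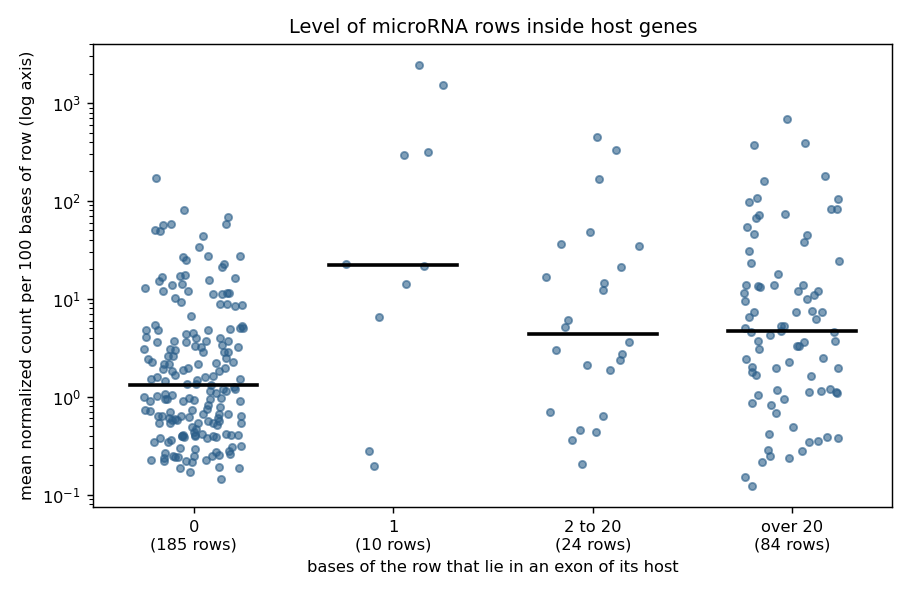
Mean normalized count per 100 bases (log axis) of the 303 microRNA rows inside a same-strand host, by the number of bases that lie in a host exon. Points are rows and bars are medians: 1.31 for 0 bases and 22.3 for 1 base, a group in which Mir5121 and Mir3064 reach 2447 and 1543.

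Neither Mir5121 nor Mir3064 was called between genotypes. Mir5121 had a median of 1825 in KO livers (1576 to 1924) and 1797 in WT livers (1692 to 2010), with a log2 fold change of -0.03. Its share of Rpl13a was 17.2% ± 0.51 in KO livers and 17.4% ± 0.80 in WT livers (SD, n = 6 each). Mir3064 had a median of 1095 in KO livers (911 to 1376) and 876 in WT livers (807 to 1133), with a log2 fold change of 0.28 (limma, adjusted p = 0.176). Ddx5 had 0.23 (adjusted p = 0.0895). Mir6236 and Mir8114, both with no same-strand host row, had log2 fold changes of -0.03 and -0.04.

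Of the 33 tested Snord and Snora rows none was called, beside 4.43% of all tested genes. Of these rows 18 were higher in KO and 15 lower, and their median log2 fold change was 0.02. Snord104 alone had an unadjusted p under 0.05, a level reached by 23.4% of all tested genes. Snord104 had 78.7, 93.0, 88.4, 97.2, 65.9 and 72.1 normalized counts in KO livers, against 71.7, 55.4, 55.6, 37.0, 50.7 and 62.9 in WT livers. Of the KO libraries 5 lay above all WT libraries, and KO 5 lay below WT 1. The log2 fold change was 0.58 with an SE of 0.16 (limma, adjusted p = 0.0583), and without WT 6 it was 0.62 (adjusted p = 0.0480). WT 6 lay above the WT mean of 55.5, so leaving it out had to enlarge the difference. Over 24 alternative settings the log2 fold change lay between 0.47 and 0.66, with adjusted p values between 0.0137 and 0.172. The row was called in 3 of them. The row is at chr11:106500993-106501062 on the plus strand, and GENCODE M21 places no gene around it on that strand.

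Of these 33 rows, 13 lie in ribosomal protein genes, 7 higher and 6 lower, with log2 fold changes between -0.37 and 0.59. The 4 box C/D rows in Rpl13a had log2 fold changes of -0.17 (Snord33), -0.12 (Snord32a), 0.08 (Snord34) and 0.13 (Snord35a). Rpl13a itself had -0.02. Snora41, in an intron of the elongation factor gene Eef1b2, had 25.9, 11.9, 14.5, 17.3, 28.3 and 30.1 normalized counts in KO livers, against 18.8, 13.6, 21.5, 10.2, 14.6 and 6.67 in WT livers. The ranges overlapped, and the log2 fold change of 0.56 was not called (limma, adjusted p = 0.298). Snord96a, inside Gnb2l1, which encodes the ribosomal scaffold Rack1, had a log2 fold change of 0.02, and Snord22, inside Snhg1, had -0.04.

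Intronic snoRNA rows stood at a median of 13.9% of the density of their hosts' exons, over 25 pairs between 1.04% (Snord16a in Rpl4) and 290% (Snora34 in Kansl2). Wholly intronic microRNA rows stood at a median of 60.4% over 22 pairs. These shares are over tested rows, which had to pass the mean of 10, and the same limit of row length holds for them.

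The 10 tested Snhg genes had log2 fold changes between -0.07 and 0.32, with a median of 0.11, and 8 were higher in KO. None was called, beside 4.43% of all tested genes. Snhg8, the host of Snora24, had 587, 575, 548, 505, 543 and 538 normalized counts in KO livers, against 561, 417, 479, 306, 460 and 466 in WT livers. Only KO 1 and KO 2 were above all WT libraries. Its log2 fold change was 0.32 with an SE of 0.12 (limma, adjusted p = 0.128). Snora24 had a log2 fold change of 0.28, and its share of Snhg8 was 3.03% ± 0.73 in KO livers and 3.05% ± 0.80 in WT livers (SD, n = 6 each).

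Snhg12, the host of Snora44, Snora61 and Snord99, had a log2 fold change of 0.17 (limma, adjusted p = 0.305). Its 3 rows had 0.25, 0.00 and -0.24. Snhg3 had 0.16, Snhg4 0.21, Snhg6 0.08 and Snhg1 -0.07. Snhg10, the host of Scarna13, was below the mean of 10, as was Snhg9, the host of Snora78.

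**Figure D5:**
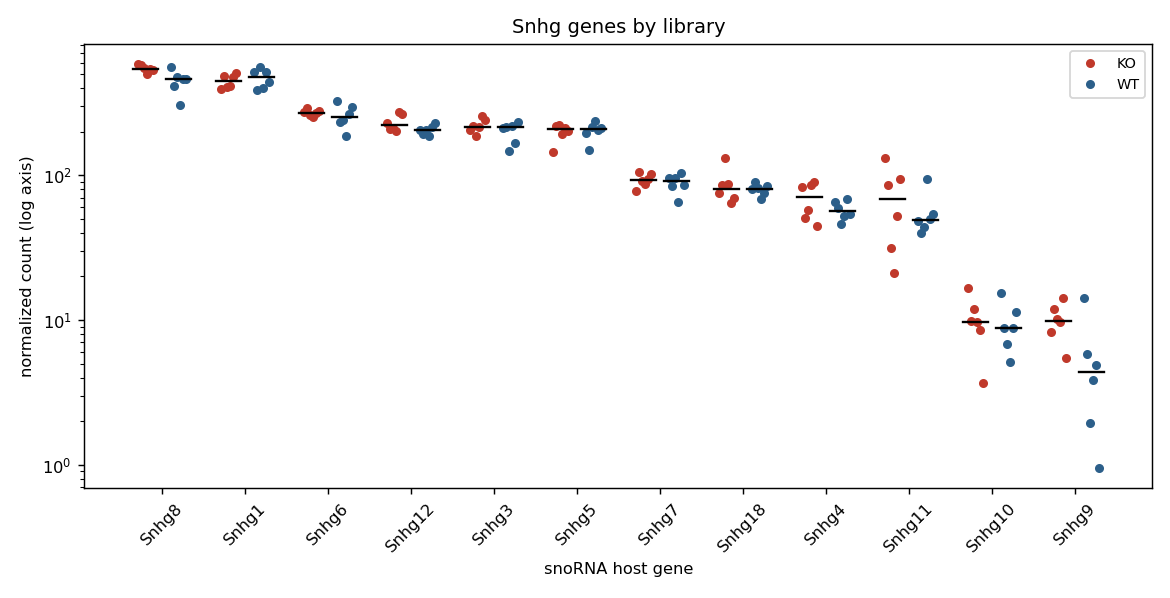
Normalized count (log axis) of each of the 12 Snhg genes in every library, KO left of WT, with the median as a bar. The genotypes overlap in each gene. Snhg8 has KO counts between 505 and 587 and WT counts between 306 and 561.

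No Scarna row reached the mean of 10. The 7 rows summed to 6.59 to 15.3 normalized counts in KO libraries and 1.95 to 14.1 in WT libraries. Scarna17 had 1.88 to 9.90 in KO livers and 0 to 4.86 in WT livers. At the edge of the filter, Snord57 in the snoRNP gene Nop56 had a mean of 10.0 and was tested, and Mir3061 had a mean of 9.97 and was not. With no filter on low values 2 of the 481 rows were called (0.416%), beside 3.05% of all 17714 genes. These were Mir3076 and Mir3968 (log2 fold change 1.53, limma, adjusted p = 0.0482), the second chosen for mention after its values were seen. Mir3968 had 5, 3, 3, 4, 3 and 3 reads in KO libraries, against 3, 0, 0, 1, 0 and 0 in WT libraries.

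No gene was called in the lists of microRNA processing, snoRNP, decay and snoRNA host genes, beside 4.43% of all 13569 tested genes. Of all tested genes 7029 were higher and 6540 lower. Of 24 tested genes of microRNA processing 14 were higher and 10 lower, with a median log2 fold change of 0.05. Ran, the GTPase of the pre-microRNA exporter, had -0.32 (limma, adjusted p = 0.0788), and Tnrc6c, a partner of Argonaute, had 0.22 (adjusted p = 0.0949). Ran was called in 4 of 24 alternative settings. Of 13 box C/D snoRNP genes 5 were higher and 8 lower. Rpap3, a cofactor of the assembly chaperone, had 0.66 (adjusted p = 0.121), and Nhp2l1, a core protein, had -0.21 (adjusted p = 0.151).

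Of 8 genes of the box H/ACA snoRNP and the Cajal body 3 were higher and 5 lower, and the core protein gene Nhp2 had -0.27 (limma, adjusted p = 0.131). Nonsense-mediated decay, which degrades many spliced Snhg transcripts, had 14 genes tested, 10 higher and 4 lower. Upf3b had 0.23 (adjusted p = 0.0850) and Upf3a 0.16 (adjusted p = 0.138). Of 44 known snoRNA host genes not named Snhg 28 were higher and 16 lower. Rpl27a, a ribosomal protein gene, had -0.33 (adjusted p = 0.0667), and Taf1d, a subunit of an RNA polymerase I factor, had 0.32 (adjusted p = 0.0944).

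Of the 254 members with an adjusted p in the authors' deposited table, 5 were under 0.05, a share of 1.97%, beside 8.68% of all 15243 genes. In the authors' deposited table these were Mir3076 (adjusted p = 9.15e-06), Mir6972 (0.0211), Snord104 (0.0137), Mir122a (0.0196) and Mir22hg (0.0307). DESeq2 on the recovered reads, 1 of the alternative settings, gave the same counts: 5 of 254 members and 1323 of 15243 genes. That setting and the deposited result are therefore not separate evidence. edgeR's quasi-likelihood test on the recovered reads called Mir3076 alone, 0.862% of the 116 rows, beside 4.10% of all tested genes. Mir3076 was called in all 24 alternative settings tried, with log2 fold changes between -1.09 and -0.89.

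Some rows shared their values or bases with another row, and the cause was not tested. Of the 481 rows, 71 had the same 12 values as another row, 4 of these with a mean of at least 1 and none tested. Among these 71, Mir1843 and Scarna3b, each with a mean of 0.245, overlap on the same strand. Over the whole table of 17714 rows, 508 repeated the 12 values of an earlier row. The tested rows overlap in 2 pairs, Snora34 with Mir1291 in Kansl2 and Snord33 with Mir5121 in Rpl13a. In 1 of the 91 pairs, Mir7658 in Plekhn1, the row exceeded its host's count in at least 1 library.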

How the data were processed

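RNA of 12 livers was compared by labelled genotype. The authors' deposited signal values are normalized counts per gene, 1 scaling factor per library, and 100% of them came out as whole reads within 0.001 reads. Per the submitters' processing notes, FastQC, STAR, featureCounts and DESeq2 were used with mm10. No source used here gives the annotation, the strand setting or the overlap rule. The second deposited table holds the authors' log2 fold changes, p-values and adjusted p-values.

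The fit used limma 3.58.1 (R 4.3.3) on log2(normalized count + 1), with eBayes and a mean trend, genotype alone, and rows with a mean of at least 10. Tests are two-sided, with Benjamini-Hochberg adjustment over all tested genes and a threshold of 0.05. A fold change on this scale understates changes of low rows. Rows were placed on GENCODE M21 (472 of 481). A nested pair is a row inside a same-strand row, the shortest host taken, and its log2 ratio was tested likewise over 207 pairs. Tests were checked on simulated data. Alternatives were other pseudocounts, filters, scalings, moderation and weights, count tests of the recovered reads with edgeR 4.0.16 or DESeq2 1.42.0, animal-number runs as a block, and omission of libraries. Members, lists and tests were chosen with earlier results of these data known. Named rows are those called, in each class the 4 with the highest mean and the 4 with the smallest p, their hosts, the rows at the filter's edge, up to 4 genes per list, and Lcorl. Rows named for a host ratio, level per length, overlap or shared host were chosen after their values were seen.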

Additional observations from a re-analysis of the deposited data

Results flagged for a closer look

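In 8 of 154 sets of 6 libraries, 1 library stood apart from the other 5 by more of the whole range than Dixon's 95% critical value for 6 samples; chance does this in about 1 of 20 sets. Among the members these were Mir22hg in WT 6, at 2052 beside 896 to 1276 in the other WT livers, and 2 rows of very few reads, Scarna9 in WT 1 (3.53, others 0 to 1.27) and Scarna6 in WT 1 (1.18, others 0). Among the hosts Cfb stood at 61940 in KO 2, beside 51223 to 54001. Cyb561d1, a snoRNA host, stood at 174 in WT 6, beside 150.2 to 158. Of the genes of microRNA processing, Ran stood at 992 in WT 6, beside 1356 to 1511, and Tnrc6a at 1306 in KO 1, beside 1023 to 1094. Lcorl stood at 2.83 in KO 5, beside 0 in the other KO livers.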

How the results depend on the processing

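Of 2091 recomputed values of named genes and ratios, 27 lost a call, 25 gained one and 0 called values reversed. Tkt lost its call with the block (adjusted p = 0.0848). Members called, 2 in the report with 1 rise, were 1 with 0 rises at a mean of at least 50, with robust moderation, with edgeR and with runs of animal numbers as a block, 4 with 3 rises under library quality weights, and 5 with 4 rises under DESeq2. Leaving out 1 library gave 1 to 5 members, 0 to 4 rises, 224 to 932 genes over the whole table, 0 to 9 nested pairs and 0 to 2 member pairs. The 5 members came without WT 6 and 4 (3 rises) without KO 6. Genes called, 601 in the report, were 1323 with DESeq2, 158 with the block and 913 without WT 6 and KO 2 together. Nested pairs, 4 in the report, were 0 with no filter, 8 with weights, 0 with the block and 2 without WT 6 and KO 2 together. Member pairs, 1 in the report, were 0 with a pseudocount of 10, no filter, a mean of at least 50, the block, and without WT 6 and KO 2 together. Mir6972, with a mean of 37.5, was not tested at a mean of at least 50. The loss of its rise and of its pair in that setting was therefore fixed by the filter. The lists, at 0 in the report, gave for microRNA processing 1 with weights, 2 with DESeq2 and 1 without WT 6 and KO 2 together (0 to 1 without 1 library), for nonsense-mediated decay 1 with DESeq2 (0 to 1), and for snoRNA hosts 2 with weights, 2 with DESeq2 and 1 without WT 6 and KO 2 together (0 to 2). The causes were not tested. No paired analysis was possible because the groups share no replicate numbers in the labels. The 365 rows under the mean of 10 were left out of the test by the filter on low counts, and the limit given for a count of 0 covers counting error only.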
